A study of Homo sapiens with 2 samples.

Results

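The receptors for glutamate, GABA, glycine and acetylcholine were examined for H3K9me3 in KBM7, a human leukemia line (chronic myeloid) whose karyotype is labelled near-haploid. The members were chosen by a rule on symbols that used no measured value, though earlier results of these data were known. The rule took ionotropic glutamate receptor subunits (GRIA, GRIK, GRID, GRIN), metabotropic glutamate receptors (GRM), GABA-A subunits (GABR), glycine receptor subunits (GLR), nicotinic acetylcholine receptor subunits (CHRN) and muscarinic acetylcholine receptors (CHRM) on chromosomes 1 to 22. This gave 65 genes with 1 interval each, among 34280 symbols on these chromosomes and 35812 symbols in the whole table. The study holds 1 library made with an H3K9me3 antibody and 1 made with IgG, both from this line with no treatment named. Only the H3K9me3 library was analysed here, so the values have no replicate and no control beside them, and no test between groups was possible.

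H3K9me3, trimethylation of lysine 9 on histone H3, is the mark of constitutive heterochromatin, repeats and certain silenced gene clusters. Ionotropic receptors and nicotinic, GABA-A and glycine receptors are ion channels assembled from several subunits, often encoded by tandem genes. Metabotropic and muscarinic receptors signal through G proteins. Most of these receptors act at synapses of the brain, some in retina or muscle, and a leukemia line is not a tissue in which they are known to function. Gene expression was not measured.

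The gene score is the number of reads over a gene interval divided by its length in kb, so it is a level per length. Intervals printed after a score are exact 95% Poisson intervals, and intervals after a share are exact 95% binomial (Clopper-Pearson) intervals. Both cover counting error only, and reads are not independent molecules. Peak cover is the percent of the gene interval that lies in peaks, and a peak counts for a gene when it overlaps by 1 bp or more. The 65 genes held 66 (CHRM4) to 83196 (CHRNA7) reads, 715376 in all, and 41 of the 65 intervals overlap another gene interval, so a read can fall in more than 1.

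Beside all symbols the receptor genes as a whole carried middling H3K9me3 scores, with few exceptions. Beside protein-coding symbols they lay higher, since 49 of the 65 scored above the protein-coding median. Their median was 43.3 reads per kb, against 43.6 for all symbols and 34.4 for the 17854 symbols matched to protein-coding genes. Of the 65 scores, 31 lay above the median of all symbols (47.7%), a level that 37.2% of protein-coding symbols exceeded. The scores of 56 genes lay between the 25th and 75th percentile of all symbols (24.0 to 77.4), none fell below the 10th percentile (14.8), and GRM6 alone exceeded the 90th (147). For protein-coding symbols the 90th percentile was 88.2, and GRM6, CHRNG, CHRNB4 and CHRNB3 exceeded it. By family the medians were 59.6 for 16 nicotinic genes, 45.0 for 8 metabotropic glutamate genes, 43.1 for 17 ionotropic glutamate genes, 40.5 for 5 muscarinic genes, 38.9 for 16 GABA-A genes and 35.4 for 3 glycine receptor genes. The ranges of all 6 families overlapped. The nicotinic median rested partly on chromosome 8 and on 60 to 90 Mb of chromosome 15, which KBM7 cells are known to carry in an extra copy: without its 6 genes there it was 44.1, and the part of copy number in the scores was not tested.

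**Figure D1:**
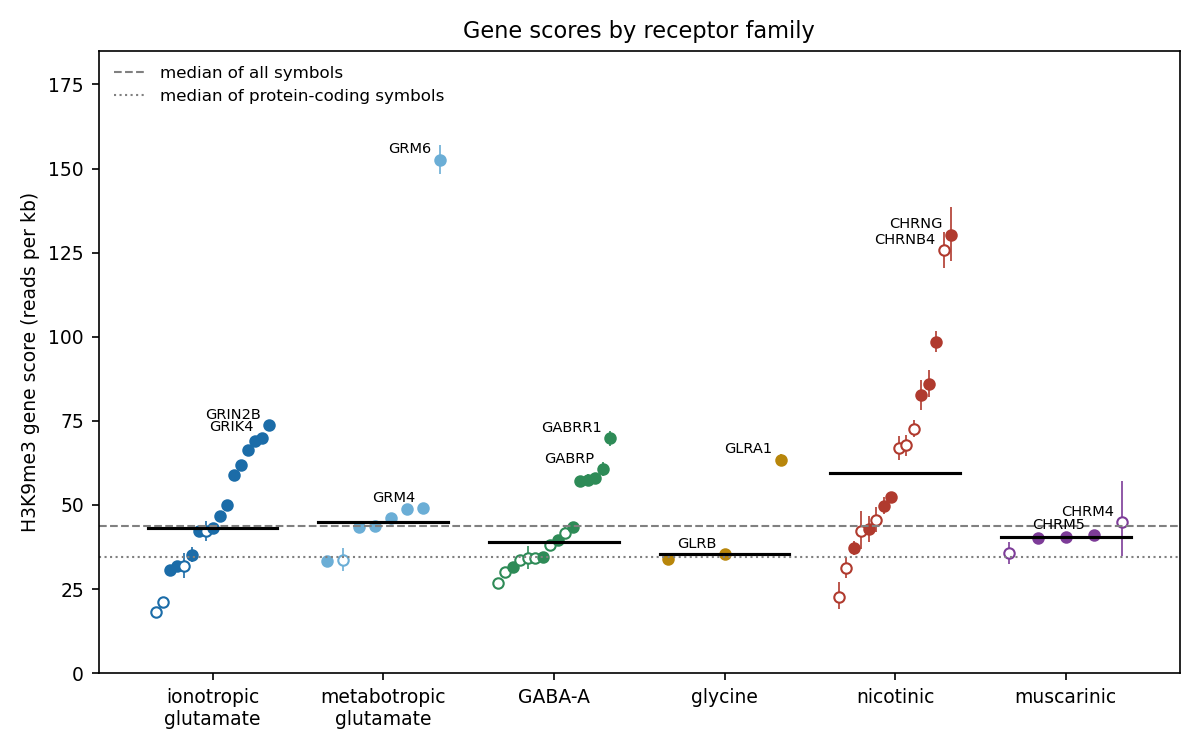
Gene score in reads per kb for each of the 65 receptor genes, by family and sorted within it; vertical bars are 95% Poisson intervals, filled points have a peak, open points have none, and black lines are family medians. GRM6 at 153, CHRNG at 130 and CHRNB4 at 126 stand above the rest, and CHRNB4 does so without a peak.

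Peaks lay in 43 of the 65 genes (66.2%, 53.4 to 77.4), against 37.1% of all symbols and 43.8% of protein-coding symbols. Receptor genes are long, with a median interval of 88.0 kb against 27.3 kb for protein-coding symbols, and long intervals meet a peak more often. Within classes of length the shares were closer. Of 15 receptor genes under 20 kb 3 had a peak (20%), against 20.5% of protein-coding symbols of that length. From 20 to 100 kb it was 12 of 21 (57.1%) against 47.5%, from 100 to 400 kb 13 of 14 (92.9%) against 87.4%, and at 400 kb or more all 15 against 98.9%. Scores stood above the protein-coding median mainly among the shorter genes: 14 of the 15 genes under 20 kb and 17 of the 21 from 20 to 100 kb exceeded the protein-coding median of their class (28.2 and 32.5), whereas 8 of 14 and 8 of 15 did so in the longer classes (42.7 and 46.6). The cover of most receptor genes was low, with a median of 0.855%, against 0 for protein-coding symbols. Within classes of length the medians were 0 against 0 under 20 kb and 0.853% against 0 from 20 to 100 kb. They were 2.05% against 3.07% from 100 to 400 kb and 2.90% against 2.96% at 400 kb or more. In 8 genes (12.3%) more than 10% of the interval lay in peaks, against 17.5% of protein-coding symbols. These 2 shares were not compared within classes of length. The peaks were mostly narrow: 626 peaks met the 65 genes, with a median width of 750 bp (900 bp for all peaks of these chromosomes), and 7 of them were 5 kb or wider. Peak height and significance are not used here.

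**Figure D2:**
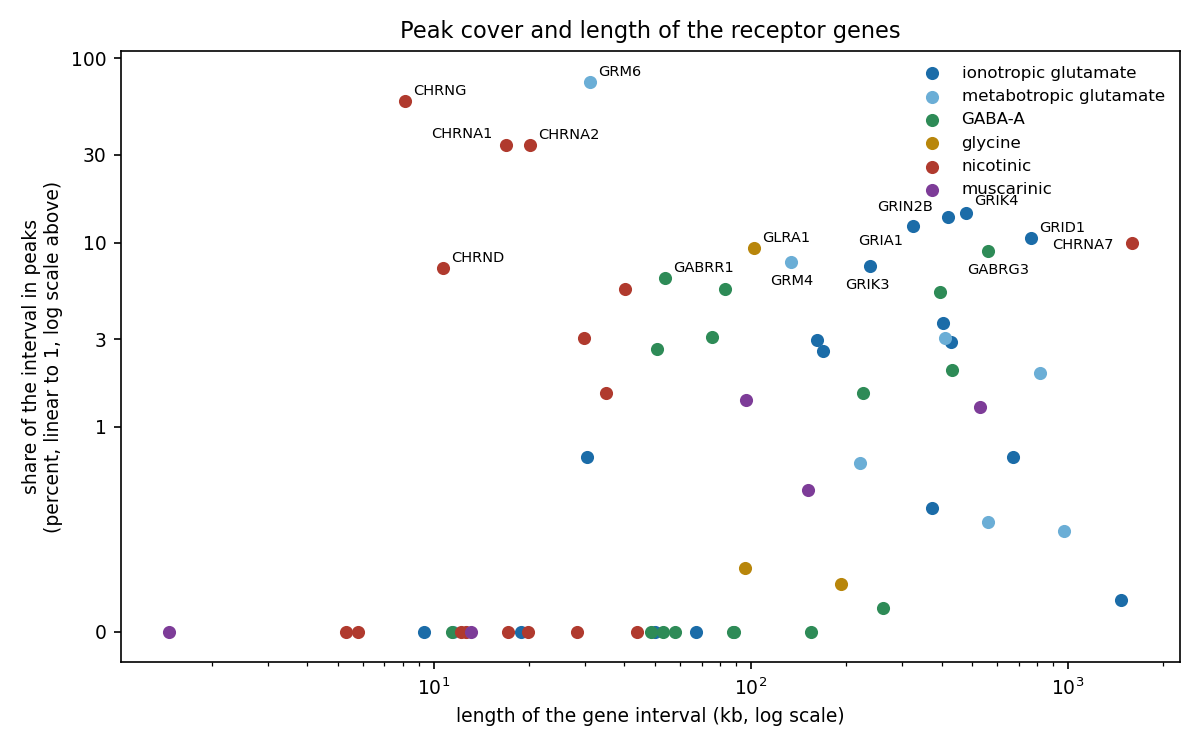
Percent of the gene interval in peaks (linear to 1, log scale above) against interval length (kb, log scale), 1 point per gene, coloured by family. High cover occurred in short genes (GRM6 74.4%, CHRNG 58.5%, CHRNA1 34.1%, CHRNA2 33.8%), while no gene of 100 kb or more had a cover above that of GRIK4 (14.5%).

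A peak lay within 1 kb of the start of the interval in 12 of the 65 genes (18.5%), against 12.3% of protein-coding symbols. In 8 of them the start itself lay in a peak: CHRNA1, CHRNA2, GABRA4, GABRB1, GRIK2, GRIN1, GRM3 and GRM6. CHRNB2, GRIK1 and GABRR1 had a peak ending 57, 150 and 654 bp before the start. The peaks over starts ran from 450 bp at GRIN1 to 15150 bp at CHRNA2. At GRIK2, the gene of the kainate subunit GluK2, a peak of 6150 bp reached from just before the start to 5736 bp into the gene and was the only peak in an interval of 671 kb. GRM3 likewise had a single peak, of 2400 bp, which covered the start, in 221 kb. GABRA4 and GABRB1, which are transcribed away from each other, share 1 peak of 2250 bp over both starts, because their deposited intervals overlap by 685 bp. In RefSeq (GRCh38.p14) the starts of these genes lie 37.99 kb apart, so the deposited start of GABRB1 is not its RefSeq start.

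**Figure D3:**
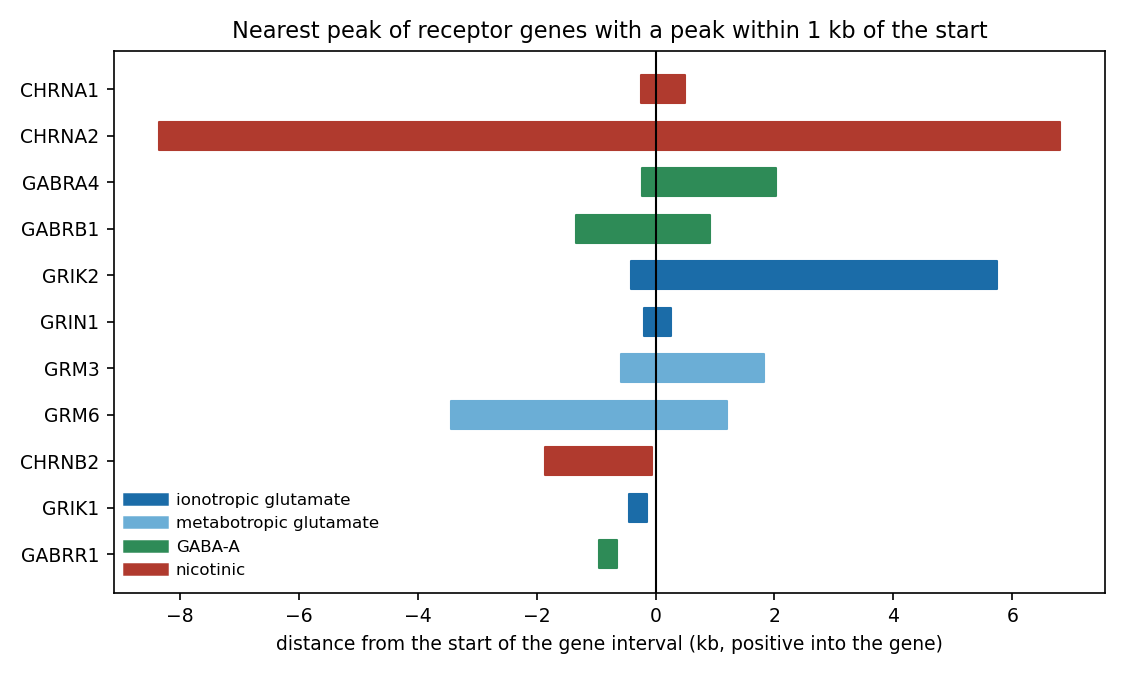
Extent of the nearest peak relative to the start of the gene interval (kb, positive into the gene) for 11 receptor genes with a peak within 1 kb, coloured by family. At 8 genes the peak crosses the start; at CHRNA2 it spans 15150 bp and at CHRNA1 750 bp.

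The sequences before the RefSeq starts differed in base composition among the genes whose deposited start lay in a peak. RefSeq windows of 250 bases before the start were matched for 48 of the 65 genes (69 windows, since some genes have several starts). Shown are the genes with a start in a peak and a single RefSeq window, other than GABRB1, since their RefSeq windows range from CpG-poor to CpG-rich. Each is written 5′ to 3′ on the strand of the gene, and capitals mark CpG dinucleotides and the E-box CAGCTG, a site of muscle bHLH factors. Peaks are on hg19 and these windows on GRCh38.p14, so whether each window lies in the peak was not tested.
CHRNA1, chr2:174764473-174764722, minus strand: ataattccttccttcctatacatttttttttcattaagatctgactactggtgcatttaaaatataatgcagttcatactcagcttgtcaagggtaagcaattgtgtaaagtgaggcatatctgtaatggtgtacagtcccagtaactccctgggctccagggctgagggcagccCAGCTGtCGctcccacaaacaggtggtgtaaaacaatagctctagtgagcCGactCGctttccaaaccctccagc
GABRA4, chr4:46993582-46993831, minus strand: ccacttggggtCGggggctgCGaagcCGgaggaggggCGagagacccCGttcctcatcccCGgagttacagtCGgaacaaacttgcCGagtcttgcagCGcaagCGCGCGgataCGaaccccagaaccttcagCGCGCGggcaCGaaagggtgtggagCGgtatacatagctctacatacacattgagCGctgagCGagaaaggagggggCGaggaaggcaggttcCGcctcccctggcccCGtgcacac
GRM3, chr7:86643659-86643908, plus strand: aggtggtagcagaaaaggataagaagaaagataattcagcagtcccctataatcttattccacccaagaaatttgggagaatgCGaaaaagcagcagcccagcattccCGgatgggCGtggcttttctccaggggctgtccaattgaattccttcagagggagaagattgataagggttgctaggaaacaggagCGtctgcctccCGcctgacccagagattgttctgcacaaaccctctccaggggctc
GRM6, chr5:178995321-178995570, minus strand: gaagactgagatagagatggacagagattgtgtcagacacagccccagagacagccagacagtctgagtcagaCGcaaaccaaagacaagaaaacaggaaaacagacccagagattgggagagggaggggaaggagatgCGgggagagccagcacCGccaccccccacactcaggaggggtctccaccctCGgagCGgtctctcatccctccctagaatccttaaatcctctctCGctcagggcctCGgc

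GABRA4 has 23 CpGs in its window, GRM6 7, GRM3 5 and CHRNA1 3, against a median of 11 over all 33725 windows on chromosomes 1 to 22 and 10 over the receptor windows. The E-box CAGCTG, a palindrome read once, was found in 9 of the 69 receptor windows (13.0%) and in 14.1% of all windows. Among the muscle nicotinic subunits with a window it was in those of CHRNA1 and, 2 times, CHRNE, and not in those of CHRNB1 and CHRND. The motif TTCAGCACC, the left part of the RE1 element bound by the neuronal repressor REST, was searched on both strands and found in 2 receptor windows (2.90%), 1 each of GRIA2 and GRM2, and in 0.282% of all windows. TATAAA, on either strand, was found in 7.25% of receptor windows and 10.7% of all. The starts of GRIA2 and GRM2 lay 6167 and 39065 bp from the nearest peak.

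Among the ionotropic glutamate receptors the score was highest in long genes with many narrow peaks. GRIN2B, the NMDA subunit GluN2B, scored 73.7 (72.9 to 74.5) with 51 peaks over 13.8% of 419 kb. GRIK4, the kainate subunit GluK4, scored 70.0 (69.3 to 70.8) with 71 peaks over 14.5% of 477 kb, and GRIA1, the AMPA subunit GluA1, scored 69.0 (68.1 to 69.9) with 30 peaks over 12.3% of 324 kb. GRID1, a delta subunit that binds synaptic organiser proteins, scored 66.5 (65.9 to 67.1) with 68 peaks over 10.6% of 767 kb. These 4 were the only ionotropic genes with more than 10% cover.

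Other genes of the same subunit classes were lower. GRIA2 and GRIA4, the AMPA subunits GluA2 and GluA4, scored 43.1 (42.1 to 44.1) and 42.2 (41.5 to 42.9), with cover of 2.96% and 0.605%, and the counting intervals of these scores overlapped. Kainate subunits spread from GRIK4 through GRIK3 at 62.0 (61.0 to 63.0) and GRIK1 at 50.04 (49.4 to 50.7) to GRIK2 at 30.7 (30.3 to 31.1) and GRIK5 at 21.0 (19.9 to 22.1). GRIK5 had no peak. GRIK3 stood above its surroundings: the 40 symbols of 1 kb or more within 1 Mb that do not overlap it had a median of 16.3, a ratio of 3.81. For GRID1 the ratio was 3.56, and 15 of the 65 genes had a ratio above 2. The share of all symbols with such a ratio was not computed. GRIN2D, the lowest of all 65, scored 18.1 (16.9 to 19.3) without a peak.

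Of the 7 NMDA subunit genes, 4 had a peak (57.1%). The median interval of the 7 genes was 50.1 kb, but they lie in every class of length used above. The share of protein-coding symbols with a peak ran from 20.5% under 20 kb to 98.9% at 400 kb or more. The 7 genes were not compared within these classes. GRIN2A, GluN2A, scored 59.0 (58.3 to 59.7) with 18 peaks, and GRIN3A 46.7 (45.7 to 47.7) with 8. GRIN1, the subunit that every NMDA receptor needs, scored 35.3 (33.2 to 37.4) and had 1 peak, of 450 bp, which covered its start. GRIN2C, GRIN2D and GRIN3B had none, at scores of 42.2, 18.1 and 31.9. Of the 17 ionotropic genes 13 had a peak (76.5%, 50.1 to 93.2). The median interval of the 17 genes was 324 kb, but they too lie in every class of length and were not compared within the classes.

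Along the long genes the peaks were not evenly spread. Each gene interval was divided into 10 equal parts from its start. GRIA1 had no peak in parts 3 and 4 and 34.7% cover in part 9, and cover was 5.28% over parts 1 to 5 and 19.3% over parts 6 to 10. In GRIN2B it was 13.5% and 14.1%, with the lowest value, 2.51%, in part 10. In GRIK4 part 10 was highest, at 25.9%, and in GRID1 part 2, at 24.3%. GRIN2A had 14.0% in part 2 and 0 in part 1. The part with the highest cover was not the same in all of these genes.

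**Figure D4:**
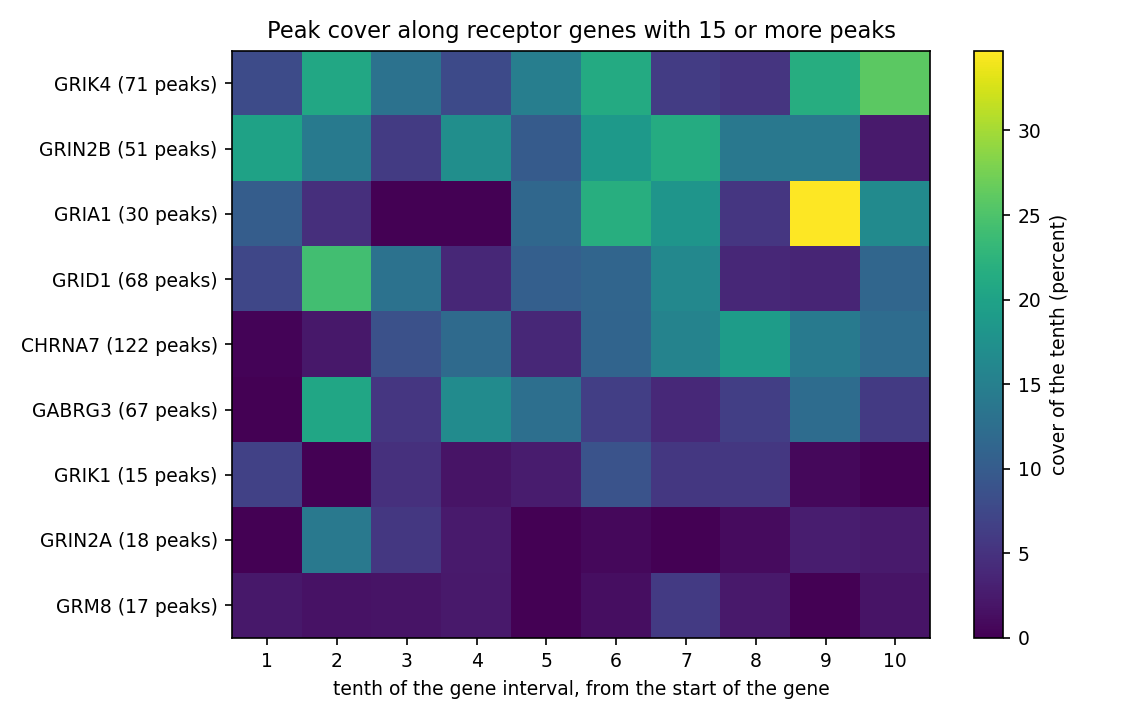
Percent of each of 10 equal parts of the gene interval in peaks, from the start of the gene at the left, for 9 receptor genes with 15 or more peaks, sorted by cover. The highest value was in part 9 of GRIA1 (34.7%), and the position of the highest part was not the same in all 9 genes.

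GRM6, the metabotropic glutamate receptor of retinal ON bipolar cells, had the highest score and cover of the 65 genes. It scored 153 (148 to 157) on 4748 reads, at chromosome 5, 178392096 to 178423207 (hg19), and 74.4% of its 31.1 kb lay in 5 peaks. The widest were 11400 bp and 9750 bp, and the latter reached into the adjacent zinc finger gene ZNF454, which scored 135. The flanks were covered as well, 56.2% of the 100 kb before the start and 60.5% of the 100 kb after the end, so the cover did not stop at the gene. Non-overlapping symbols within 1 Mb had a median of 31.5, a ratio of 4.85. GRM6 shares 70.9% of its interval with other gene intervals, mainly the RNA RP11-281O15.4, which scored 146 and is not a separate measurement.

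The other metabotropic receptors lay close together. Scores ran from 33.2 (32.8 to 33.7) for GRM5 and 33.7 (30.4 to 37.2) for GRM2 to 49.2 (48.0 to 50.4) for GRM4. GRM4, a mostly presynaptic receptor of group III, the group that also holds GRM6, GRM7 and GRM8, had 7.85% cover, and 31.8% of the 100 kb downstream of it lay in peaks. GRM7 and GRM8 scored 46.3 and 43.8, with 0.494% of 972 kb and 1.95% of 815 kb in peaks. GRM5, a group I receptor, which acts after the synapse, had 4 peaks over 0.534% of 561 kb. The group II receptor GRM3 scored 43.3, and GRM2 had no peak.

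Among the GABA-A subunit genes, whose alpha, beta and gamma products assemble into pentamers, GABRA5 and GABRG3 on chromosome 15 scored above GABRB2 and GABRA6 on chromosome 5 and above the cluster of chromosome 4. On chromosome 5 the beta subunit gene GABRB2 scored 34.6 (33.9 to 35.3) and the alpha subunit gene GABRA6 33.7 (32.8 to 34.6). GABRB2 held a single peak, of 300 bp, over 0.115% of 261 kb, and GABRA6 held none in 156 kb. On chromosome 15 GABRA5 and GABRG3, an alpha and a gamma subunit gene, scored 57.5 (55.9 to 59.2) and 58.0 (57.4 to 58.6). GABRG3 held 67 peaks over 9.05% of 562 kb, 11.9 per 100 kb against 0.384 for GABRB2. GABRA5 held 5 peaks over 5.61% of 82.8 kb, and it shares 88.3% of its interval with other gene intervals, so it is not a separate measurement. Both genes lie outside 60 to 90 Mb of chromosome 15.

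The cluster of chromosome 4 (46037786 to 47428461, hg19) had 19 peaks in 1391 kb and 1.16% cover. GABRG1 scored 26.8 (25.7 to 27.9), the lowest GABA-A value, GABRA2 31.5 (30.8 to 32.3), GABRA4 39.7 (38.3 to 41.1) and GABRB1 43.6 (43.0 to 44.2). GABRG1 had no peak and GABRB1 had 10. The scores of GABRB2 and GABRA6 lay within the range of this cluster, whereas GABRA5 and GABRG3 lay above it. The surroundings of these 2 genes were also high: symbols within 1 Mb of GABRG3 had a median of 72.5, so that its ratio to them was 0.801, and the ratio was 0.822 for GABRA5.

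The GABA-A genes on other stretches of the genome included the highest of the family. GABRR1, a rho subunit of the retina, scored 69.8 (67.6 to 72.0) with 5 peaks over 6.42% of its interval. Its neighbour GABRR2 scored 38.1 (36.5 to 39.7) without a peak, and the third rho gene, GABRR3 on chromosome 3, scored 41.8 (40.0 to 43.7), also without one. GABRP, a subunit found mostly outside the brain and encoded elsewhere on chromosome 5, scored 60.7 (58.6 to 62.9), and this counting interval overlaps those of GABRA5 and GABRG3. It shares 49.9% of its gene interval with another one. GABRD, the delta subunit of extrasynaptic receptors, scored 34.2 (30.9 to 37.7) and had no peak. Of the 16 genes 9 had a peak (56.2%, 29.9 to 80.2), and no GABA-A gene had more than 9.05% cover (GABRG3). The median interval of the 16 genes was 85.4 kb, but they lie in every class of length used above. The share of protein-coding symbols with a peak ran from 20.5% under 20 kb to 98.9% at 400 kb or more. The 16 genes were not compared within these classes, so their share cannot be called high or low for their length.

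Of the glycine receptor genes, GLRA1, the adult alpha subunit of spinal cord and brainstem, scored 63.5 (61.9 to 65.0) with 9 peaks over 9.38% of 102 kb. GLRA3 and the beta subunit GLRB scored 34.1 (33.2 to 34.9) and 35.4 (34.2 to 36.6), with 1 peak each, over 0.234% and 0.312%. GLRA1 thus lay apart from both by more than the counting error.

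The muscle-type nicotinic receptor is built from CHRNA1, CHRNB1, CHRND and, by age, fetal CHRNG or adult CHRNE. CHRNG scored 130 (123 to 138) on 1057 reads and CHRNA1 82.6 (78.4 to 87.1) on 1395. CHRND and CHRNE scored 42.7 (38.9 to 46.8) and 42.3 (36.9 to 48.2), and CHRNB1 31.3 (28.3 to 34.6). The genes of the fetal and adult subunits therefore differed in H3K9me3 score, and CHRNE and CHRND did not differ beyond the counting error. CHRNE held 224 reads and shares 71.7% of its interval with other gene intervals, mainly C17orf107, which scored 50.1. At chromosome 2, 233404437 to 233412546 (hg19), a peak of 6300 bp covered 58.5% of CHRNG and ran past its end into TIGD1, which scored 104. CHRND lies just before CHRNG and had 7.28% cover, from a peak of 1050 bp at its end.

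CHRNA1, at chromosome 2, 175612320 to 175629200, held 4 peaks over 34.1% of its length, of which the one of 750 bp covered the start. The whole of its interval lies in that of the RNA AC018890.6, whose own score over 228 kb was 47.9. CHRNB1 and CHRNE had no peak. CHRNG and CHRNA1 stood above their surroundings, with ratios of 3.56 and 2.44 to the median of non-overlapping symbols within 1 Mb.

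Of the 11 neuronal nicotinic subunits, 6 lie in the regions of extra copy. On chromosome 8 CHRNB3, CHRNA2 and CHRNA6 scored 98.5 (95.4 to 101.6), 86.0 (82.0 to 90.1) and 72.6 (70.1 to 75.2), with ratios to their surroundings of 1.67, 0.993 and 1.17. A peak of 15150 bp covered 33.8% of CHRNA2, including its start, and 72.85% of the 100 kb before it lay in peaks, whereas CHRNA6 had none. In the cluster of chromosome 15 at 78857862 to 78933587, inside the segment of extra copy, CHRNA5 scored 49.7 (47.2 to 52.3), CHRNA3 67.7 (64.7 to 70.8) and CHRNB4 126 (121 to 131). These genes form a ganglionic receptor and lie side by side within 75.7 kb, yet they differed by more than the counting error. The cluster held 1 peak, of 900 bp, in CHRNA5. CHRNB4 had the highest score of the 22 receptor genes without a peak, whose median was 35.0, and 82.9% of its interval is shared with other gene intervals, of which RP11-335K5.3, at a score of 97.2, overlaps it most. Its ratio to the surroundings was 2.202, against 0.967 for CHRNA3 and 0.710 for CHRNA5.

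The neuronal subunits elsewhere scored between 22.8 and 66.8. CHRNA9, a subunit of hair cells of the inner ear, scored 66.8 (63.3 to 70.5) without a peak in the gene and with one 1296 bp from its start, while its partner CHRNA10 scored 22.8 (19.0 to 27.0), the lowest nicotinic value. CHRNA4 and CHRNB2, which form the main high-affinity nicotine receptor of the brain, scored 37.1 (35.1 to 39.1) and 45.6 (41.9 to 49.5). CHRNA7, the subunit of homomeric receptors, scored 52.3 (52.0 to 52.7) with 122 peaks over 9.96% of its interval. That interval spans 1590 kb, holds 18 other gene intervals whole and shares 51.3% of its length, so its values are those of a region with many genes. Part 1 of it had 0.377% cover and part 8 had 19.2%. The 26 non-overlapping symbols within 1 Mb had a median of 4.94, below the 10th percentile of all symbols (14.8). Why these scores are so low was not tested, so CHRNA7 is not called high beside them.

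Muscarinic receptors had the narrowest range of scores of the 6 families. CHRM1 scored 35.7 (32.6 to 39.1), CHRM2 40.2 (39.2 to 41.2), CHRM3 40.5 (39.9 to 41.0), CHRM5 41.0 (39.8 to 42.3) and CHRM4 45.0 (34.8 to 57.2). CHRM2, CHRM5 and CHRM1 share 100%, 73.1% and 67.1% of their intervals with other gene intervals, so their scores are not separate measurements. The counting interval of CHRM4, on 66 reads, overlaps those of the other muscarinic genes, so CHRM4 could not be ordered among them. CHRM3 had 8 peaks over 1.28% of 529 kb, CHRM2 had 2 and CHRM5 had 1, and CHRM1 and CHRM4, short genes of 13.1 and 1.47 kb, had none.

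Other genes of the same synapses were read beside the receptors from a list of transporters, enzymes, auxiliary subunits and scaffolds. Of 40 such genes, all found, 24 scored above the median of all symbols and 29 had a peak (72.5%), with a median score of 57.7 and a median cover of 6.69%. Of protein-coding symbols 37.2% scored above that median and 43.8% had a peak, a share that rose with length to 98.9% at 400 kb or more, and the 40 genes were not compared within classes of length. The medians were 77.1 for 10 auxiliary subunits of glutamate receptors, 76.1 for 8 transporters, 79.2 for 5 enzymes of transmitter synthesis and breakdown, 67.8 for the 2 GABA-B receptors and 37.4 for 14 scaffold and clustering genes. SLC18A3, the vesicular acetylcholine transporter, was highest at 205 (188 to 224) and lay wholly in a peak, inside the interval of CHAT, the acetylcholine-synthesising enzyme, at 105 (103 to 107). GAD1, a GABA-synthesising enzyme, scored 106 (103 to 109) with 39.4% cover, and the scaffold HOMER3 was lowest at 12.0 (10.1 to 14.1). ACHE, which breaks acetylcholine down, scored 16.3 (13.5 to 19.6) without a peak. ACHE and the following comparison were chosen after the values were seen. The 6 CACNG genes on the list, which encode auxiliary subunits of AMPA receptors, scored 71.5 to 101, while GRIA1, GRIA2 and GRIA4 scored 42.2 to 69.0. The counting interval of the lowest CACNG gene, CACNG8 (68.3 to 74.7), overlapped that of GRIA1. CACNG4 and CACNG5 lie near each other on chromosome 17, and CACNG7 and CACNG8 on chromosome 19. Of the other auxiliary subunits on the list, CNIH3 scored 79.7. NETO1, NETO2 and CNIH2 went the other way, at 36.7, 29.1 and 19.0, below GRIA1, GRIA2 and GRIA4.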

How the data were processed

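Crosslinked chromatin of KBM7 cells was precipitated with an H3K9me3 antibody or IgG and sequenced, per the labels' protocols (IgG data: not analysed here). Per the submitters' processing notes, Bowtie2 and MACS were used with hg19, with neither role nor version stated. For read filters and the use of IgG in peak calling, the answer is not given in those sources. The authors deposited a read count per gene interval, not normalised, and a score, which equals count divided by interval length in kb (largest difference 3.03e-06) and is not scaled to depth, IgG or copy number. The peak list, as deposited, gives positions on a grid of 150 bp without heights.

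Of symbols with several intervals (241 on chromosomes 1 to 22, no receptor gene) the highest score was used. Cover, distances, clusters (gaps up to 500 kb), surroundings (symbols of 1 kb or more within 1 Mb) and 10 equal parts of an interval were computed in Python 3.11.15 with numpy 2.4.6, pandas 2.3.3 and scipy 1.17.1; figures used matplotlib 3.10.9. Overlap functions were checked on simulated intervals. Protein-coding symbols and promoter windows came from RefSeq tables on GRCh38.p14, used for names, types and sequences; all 65 receptor genes matched. No coordinates were converted between builds. Library depth was not analysed here, and the number of reads per gene sets the precision of its score. The members and lists were chosen with earlier results of these data known. All members could be named, but a few are not reported by name here and enter only counts, medians and unlabelled points. By rule, full values went to the 3 highest and the lowest scores, the 3 highest covers and the clusters. Length classes, surroundings, parts of intervals and motifs were added after the data were seen. Receptor genes of chromosome X (6) were left out by the rule on chromosomes.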

Additional observations from a re-analysis of the deposited data

How the results depend on the processing

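With 1 library no replicate could be left out, and limits from sample spread cannot be given. No paired analysis was possible because each group has 1 sample. Another choice of interval per symbol could not change a value, since each gene has 1. The other alternatives were wider peaks, more overlap, single values per cluster and leaving out chromosome 8 with 60 to 90 Mb of chromosome 15. Leaving out the 9 genes that share at least 50% of their interval was added after the data were seen. Of the 79 values of 22 results under these alternatives, 77 stayed inside the 95% interval of the main value (binomial, from order statistics for medians) or within 1.5 times a count. With only peaks of 900 bp or more, 53.8% of the 65 genes had a peak, against 66.2%, and the median cover of glycine receptor genes was 0, because 2 of the 3 genes hold only narrower peaks. The share of protein-coding symbols with a peak of that width was not computed. With these wider peaks the median cover also fell to 0 for GABA-A and muscarinic genes (0.818% and 0.693% with all peaks), to 0.855% from 2.57% for ionotropic glutamate genes and to 0.532% from 0.855% for all 65. Without the genes that share their interval, the median cover was 0.115% for GABA-A genes and 0.824% for metabotropic genes (1.39% with them). With 1 value per cluster it rose to 1.66% for GABA-A genes and, from 0.764%, to 1.27% for nicotinic genes. With a window of 5 kb, 22 genes had a peak at the start, against 12 within 1 kb and 10 within 0.25 kb. The share of protein-coding symbols was computed for 1 kb only (12.3%), so the other 2 counts have no share beside them. For families of 3 to 17 genes the intervals are wide, and for the smallest they span the whole range of the family, so staying inside them does not show that a median is precise. Short genes with few reads, such as CHRM4, have the widest intervals of their scores.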
